A study of Mus musculus with 11 samples.

Results

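10 genes of the p53 pathway were considered: Trp53, the transcription factor p53 itself, Cdkn2a, the tumour suppressor locus upstream of it, and 8 genes that p53 is known to switch on, Mdm2, Cdkn1a, Phlda3, Gadd45a, Ccng1, Sesn1, Sesn2 and Perp. Members were all probe sets annotated to only 1 of these genes. They came to 16 of the 22626 probe sets of the array and covered 9 of the 10 genes, of 12393 genes that the array measured with at least 1 such probe set. No probe set was annotated to Trp53 in the table used, so Trp53 RNA is not analysed here. The question was whether any tumour combined high Cdkn2a with low p53 targets.

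The tumours were lymphomas that arose sporadically in mice of the FVB background carrying the E-mu-BRD2 transgene, in which the immunoglobulin heavy chain enhancer drives the bromodomain protein BRD2 in B cells. By severity, 6 lymphomas were classed as marginal and 5 as transitional, each gave RNA for 1 array, and all 11 animals carried the transgene. Every tumour was recorded as oligoclonal. Spleen enlargement was recorded as marginal for marginal 1, mild for marginal 2, 3 and 4 and transitional 3, moderate for marginal 5 and 6, moderately severe for transitional 4 and 5, and severe for transitional 1 and 2. The ages of the animals and the tissue that gave the RNA are not given in the sources used here. Nontransgenic or resting B cells are not analysed here, so each level is set against the other tumours and not against a normal cell.

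p53 is held low in unstressed cells by Mdm2, a ubiquitin ligase that p53 itself induces, so the pair forms a feedback loop. DNA damage, or oncogene signals relayed by Arf, releases p53, which then induces Cdkn1a and other genes of arrest, repair and death. Cdkn2a encodes Arf, an inhibitor of Mdm2, and Ink4a, an inhibitor of the kinases Cdk4 and Cdk6, from 2 start sites whose transcripts share their later exons. In B cell lymphomas of mice the Arf and p53 genes are known sites of loss, and tumours that have lost p53 function often build up Cdkn2a RNA. This is the background of the question asked of each tumour.

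The promoters below show the starting points of the transcripts that the results turn on. They are the 300 bases around a RefSeq start site in assembly GRCm38.p6, from 250 before to 50 after it, and runs in capitals match the p53 half-site decamer, searched on both strands (the consensus reads the same on each). The table held 12 promoters of 9 of the 10 genes, with none for Perp. The first pair are the 2 starts of Cdkn2a, for Arf and for Ink4a, neither of which held a match. The single Cdkn2a probe set was not matched to either transcript, so its signal is that of the locus.
Cdkn2a upstream start, chr4:89294570-89294869, minus strand: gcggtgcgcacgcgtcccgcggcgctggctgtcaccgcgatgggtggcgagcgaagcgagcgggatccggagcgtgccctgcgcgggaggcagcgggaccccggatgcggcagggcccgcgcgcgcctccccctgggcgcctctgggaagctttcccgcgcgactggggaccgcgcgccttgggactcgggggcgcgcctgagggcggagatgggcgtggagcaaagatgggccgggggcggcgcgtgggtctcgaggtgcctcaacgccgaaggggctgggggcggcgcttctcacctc
Cdkn2a downstream start, chr4:89282143-89282442, minus strand: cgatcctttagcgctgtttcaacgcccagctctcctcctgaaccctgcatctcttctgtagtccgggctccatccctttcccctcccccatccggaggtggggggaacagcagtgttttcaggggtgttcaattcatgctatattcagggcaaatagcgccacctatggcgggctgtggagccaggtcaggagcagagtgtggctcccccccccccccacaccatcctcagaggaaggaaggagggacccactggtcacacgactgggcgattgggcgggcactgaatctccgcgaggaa
Cdkn1a upstream start, chr17:29090729-29091028, plus strand: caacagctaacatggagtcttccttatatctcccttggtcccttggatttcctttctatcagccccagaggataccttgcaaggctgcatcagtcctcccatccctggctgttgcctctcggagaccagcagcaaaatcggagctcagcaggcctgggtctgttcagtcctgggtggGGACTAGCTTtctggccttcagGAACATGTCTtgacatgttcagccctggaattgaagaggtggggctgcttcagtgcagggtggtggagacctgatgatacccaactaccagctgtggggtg
Gadd45a, chr6:67037358-67037657, minus strand: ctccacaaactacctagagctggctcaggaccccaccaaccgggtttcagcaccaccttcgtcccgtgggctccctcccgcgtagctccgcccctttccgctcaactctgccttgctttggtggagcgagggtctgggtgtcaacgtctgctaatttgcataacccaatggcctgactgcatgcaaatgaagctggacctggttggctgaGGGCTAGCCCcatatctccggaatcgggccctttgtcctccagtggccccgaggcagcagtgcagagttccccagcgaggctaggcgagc
Ccng1, chr11:40755237-40755536, minus strand: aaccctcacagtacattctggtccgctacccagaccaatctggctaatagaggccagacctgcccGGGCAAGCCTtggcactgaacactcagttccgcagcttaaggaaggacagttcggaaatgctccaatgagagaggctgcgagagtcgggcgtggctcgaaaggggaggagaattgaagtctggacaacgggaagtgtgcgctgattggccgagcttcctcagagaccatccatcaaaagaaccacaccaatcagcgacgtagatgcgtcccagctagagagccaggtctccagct
Cdkn1a is shown because it is the best known p53 target. Its upstream start held 2 decamers, beginning at −73 and −51 from the start site, while its downstream start held none. Gadd45a and Ccng1 are shown because their signals ran in opposite directions over the tumours, although each promoter held 1 decamer, at −40 and −185. In all, 6 of the 12 promoters, those of Gadd45a, Mdm2, Ccng1, Trp53 and 1 start each of Sesn1 and Cdkn1a, held a decamer, against 8.36% of the 32851 promoters of the table. A match is a run of letters and not a measured binding site.

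Cdkn2a stood out on 1 tumour. Its signal was 7.8, 10.8, 56.0, 49.9, 27.8 and 106.3 on marginal 1 to 6, and 45.2, 698.4, 64.3, 3.0 and 15.4 on transitional 1 to 5. Transitional 2 was thus 15.5 times the median of the 11 arrays, and the next array, marginal 6, was 2.35 times the median. On the other 10 arrays Cdkn2a lay between the 6.8th and the 48.4th percentile of the signals of its own array, and on transitional 2 at the 79.0th. A rise as far above the median on transitional 2 was shared by 0.385% of all probe sets (87 of 22626, on the log2(signal + 16) scale), and 0.738% reached it on any array. The lowest signals, on transitional 4, marginal 1 and marginal 2, are in a range where array signal is mostly background, so ratios among the dim arrays carry little weight. The classes overlapped, and so did the spleen grades: of the severe spleens transitional 2 was the highest and transitional 1 lay at the median.

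The tumour with high Cdkn2a did not have low p53 targets as a set. An array counted as high in Cdkn2a above 2 times the median of the arrays, and as low in p53 targets when at least 6 of the 8 target genes lay below their own medians. Cdkn2a was high on marginal 6 and transitional 2, with 3 of 8 targets below the median on each. Targets were low on marginal 4 and 5, at 6 of 8 each, where Cdkn2a was 1.10 and 0.615 times its median. The mean log2 deviation of the 8 targets was −0.22 and −0.34 there, but lowest on transitional 1, at −0.71. That array had 4 targets below and 1 above the median, with Mdm2, Sesn1 and Sesn2 at it, so the rule did not count it as low. Cdkn2a was at its median there. The 2 conditions met on 0 of the 11 arrays. With Cdkn2a required to be over only 1.5 times the median, or with only 5 low targets required, the count was also 0. Requiring 3 times the median or 7 low targets is stricter than the rule and could not have raised the count. For scale, 14.3% of all probe sets were over 2 times their median on transitional 2, so a doubling there was common and only the size of the Cdkn2a rise was rare.

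**Figure D1:**
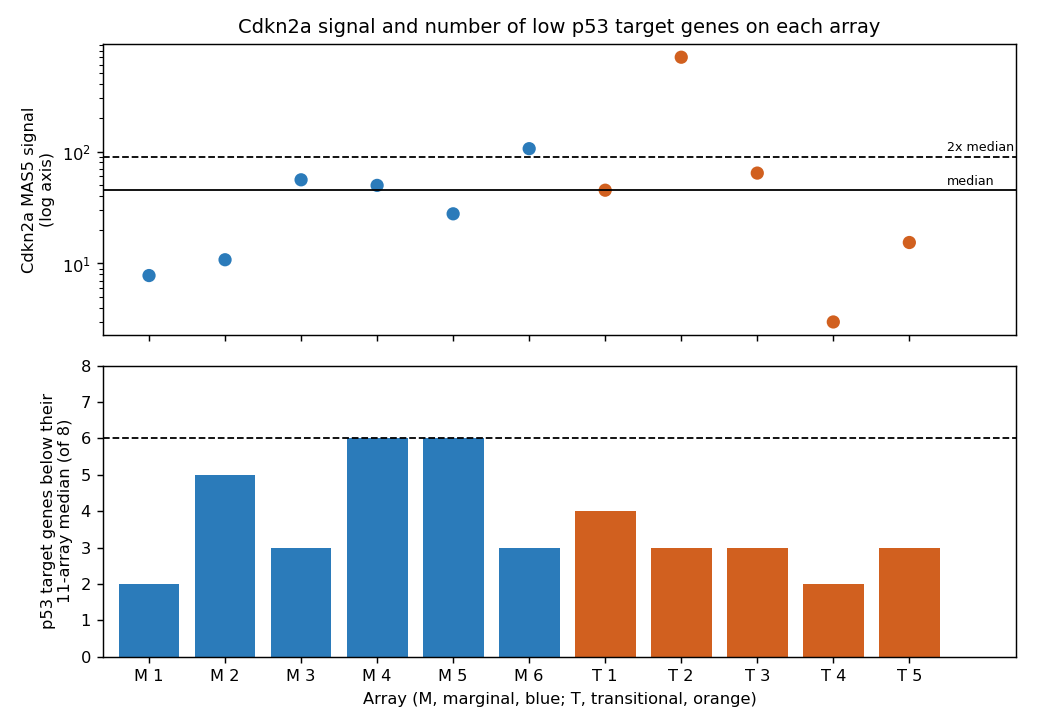
Cdkn2a signal on a log axis (upper panel) and the number of the 8 p53 target genes below their own 11-array median (lower panel) for each array, marginal in blue and transitional in orange. The dashed lines mark 2 times the Cdkn2a median and 6 genes; transitional 2 at 698.4 is highest above, yet only 3 of its targets are low, and the bars that reach 6 are marginal 4 and 5.

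Within transitional 2 the targets went different ways. Gadd45a was 193.8, the second lowest of all arrays and 0.390 times its median, and Sesn1 was the lowest of all, at 1064.2. Ccng1 was 3394.3, or 1.48 times its median, Cdkn1a was 322.9, or 1.22 times, and Perp was the highest of all arrays, at 48.3. Mdm2 was 592.8 against a median of 532.1. Markers of other cell types moved with this tumour. Of the macrophage markers 6 of 9, and of the stromal and endothelial markers 6 of 10, were highest on transitional 2, with summed signals of 38880 (1718 to 11530 elsewhere) and 7038 (312.8 to 1477 elsewhere). The lowest marker of each list there was Mrc1 at 262.6 and Lum at 5.2. The part of these cells in the Cdkn2a signal was not tested, and in RNA of whole tumours a change in the share of a cell type cannot be told apart from a change of RNA in each cell. B cell markers summed to 43670 on transitional 2, within the range of the other arrays.

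Mdm2 gives the feedback arm, and it varied little. The brighter of its 2 probe sets gave 587.9, 460.6, 741.7, 368.0, 504.7 and 460.6 on marginal 1 to 6 and 532.1, 592.8, 569.5, 859.5 and 450.6 on transitional 1 to 5. No tumour departed from the median by more than 1.62 times, and the log2 SD of 0.33 lay at the 23.2th percentile of all tested probe sets. The dimmer probe set ran from 328.7 to 536.9. The 2 probe sets ranked the tumours differently (Pearson r = 0.017 over 11 arrays, as a description), so that transitional 4, highest on the first, was unremarkable on the second at 473.0. Neither probe set showed a tumour with Mdm2 strongly raised or lost.

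Cdkn1a, the inhibitor of cyclin-dependent kinases through which p53 halts the cell cycle, varied widely and was lowest in transitional 1. The signals were 303.2, 99.3, 265.6, 232.4, 128.0 and 398.1 on marginal 1 to 6 and 14.9, 322.9, 59.3, 488.9 and 531.2 on transitional 1 to 5. Transitional 1 was 0.0561 times the median and transitional 5 was 2.00 times it. A fall as deep on transitional 1 was shared by 0.383% of tested probe sets. The second Cdkn1a probe set ordered the tumours in nearly the same way (Spearman rho = 0.927 over 11 arrays) but read 114.1 on transitional 1 and had its lowest signal, 67.2, on marginal 2. The depth of the fall on transitional 1 was therefore read by 1 probe set only. Cdkn2a on transitional 1 was at its median, so this tumour too lacked the pairing that was asked for. On transitional 1, 7 of 12 T and natural killer cell markers were highest and 8 of 10 granulocyte and 7 of 8 erythroid markers were lowest of all arrays. Plasma cell markers had 4 of 6 highest there (sum 39160, at most 34710 elsewhere) and macrophage markers 4 of 9 lowest (sum 1718, at least 2930 elsewhere). The part of these cell types in the Cdkn1a level was not tested.

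Phlda3, a p53-induced inhibitor of Akt signalling, followed Cdkn1a within a narrower range. Its signals were 296.8, 119.0, 285.2, 191.3, 261.6 and 264.4 on marginal 1 to 6, and 174.3, 266.4, 167.4, 355.8 and 389.1 on transitional 1 to 5. The arrays with the highest values, transitional 4 and 5, were the highest for Cdkn1a as well, and marginal 2 and transitional 3 were low for both. Over the 11 arrays Phlda3 rose with Cdkn1a by rank (Spearman rho = 0.873, permutation p = 0.00082, adjusted p = 0.0295 over 36 pairs of members), while Pearson r = 0.761 did not pass (permutation p = 0.00635, adjusted p = 0.0762). Without transitional 1 and 3, the arrays farthest from the Cdkn1a median, r was 0.816. Within the marginal class it was 0.688, and without transitional 4 and 5 it was 0.657. Transitional 4 and 5 were also the arrays with the highest erythroid sums (92530 and 75630) and proliferation sums (57400 and 45900) and the lowest B cell sums (9814 and 6748), and the part of these in the relation was not tested.

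**Figure D2:**
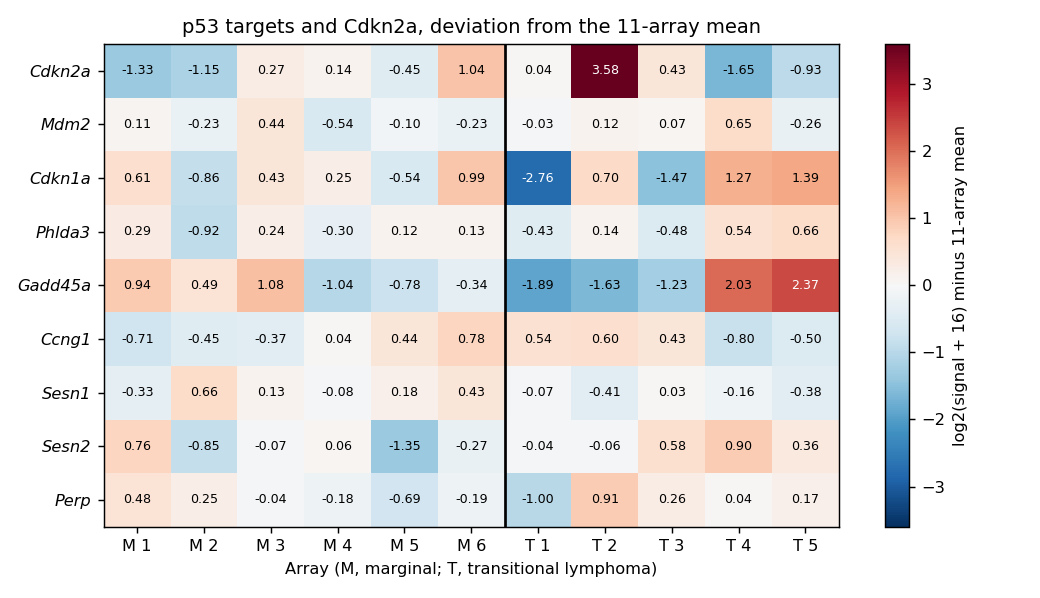
Heat map of the brightest probe set of each of the 9 genes (rows) on each array (columns; M, marginal; T, transitional), as log2(signal + 16) minus the mean of the 11 arrays, with the value in each cell. Cdkn2a is 3.58 above its mean on transitional 2, Cdkn1a is at −2.76 on transitional 1, and Gadd45a and Ccng1 have opposite colours on most arrays.

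Gadd45a and Ccng1 split the tumours into the same 2 sets in opposite directions. Gadd45a, a stress sensor of arrest and repair that is induced both through p53 and without it, was 1230.4, 893.2, 1357.0, 300.5, 363.2 and 497.3 on marginal 1 to 6 and 158.7, 193.8, 261.7, 2643.4 and 3333.3 on transitional 1 to 5. Ccng1, cyclin G1, which recruits a phosphatase to Mdm2, was 1354.6, 1633.9, 1721.3, 2298.3, 3045.8 and 3838.4 on marginal 1 to 6 and 3262.4, 3394.3, 3011.2, 1278.2 and 1571.8 on transitional 1 to 5. The 5 arrays highest in Gadd45a, marginal 1, 2 and 3 and transitional 4 and 5, were the 5 lowest in Ccng1. On them Gadd45a was at least 893.2 and Ccng1 at most 1721.3, against at most 497.3 and at least 2298.3 on the other 6. Over the 11 arrays the relation was negative and did not pass after adjustment (r = −0.854, permutation p = 0.00235, adjusted p = 0.0702; rho = −0.764, permutation p = 0.00867, adjusted p = 0.104). It was −0.81 without marginal 1 and transitional 4, −0.747 among marginal tumours and −0.813 with transitional 4 and 5 left out. Among the other 6 arrays, whose range is narrow in both genes, r was 0.11. The other Ccng1 probe sets followed the first (r = 0.753 and 0.936), although marginal 3 was not among the 5 lowest arrays by either of them, and by the one with r = 0.753 neither was transitional 5.

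The same 5 arrays were the 5 highest for the marker lists of 2 other lineages. Granulocyte markers (10 genes) summed to between 79800 and 228500 on them and to between 9052 and 44960 on the other 6. Erythroid markers (8 genes on the array) summed to between 48880 and 92530 on them and to between 1954 and 24040 on the other 6. Proliferation genes (14) summed to between 18750 and 57400 on these 5 and to at most 17950 elsewhere. B cell markers summed to 9814 and 6748 on transitional 4 and 5, the arrays with the highest Gadd45a, and to at least 24450 on every other array. Stromal and endothelial markers (10 genes) went the other way, with sums from 312.8 to 918.1 on these 5 arrays and from 984.8 to 7038 on the other 6. The lowest readings of a single marker on any array were 6.7 in the granulocyte, 4.6 in the erythroid and 4.2 in the B cell list. They were 2.1 in the stromal and endothelial and 68.3 in the proliferation list, so some markers were near background on some arrays. The part of these cells in the Gadd45a and Ccng1 levels was not tested.

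**Figure D3:**
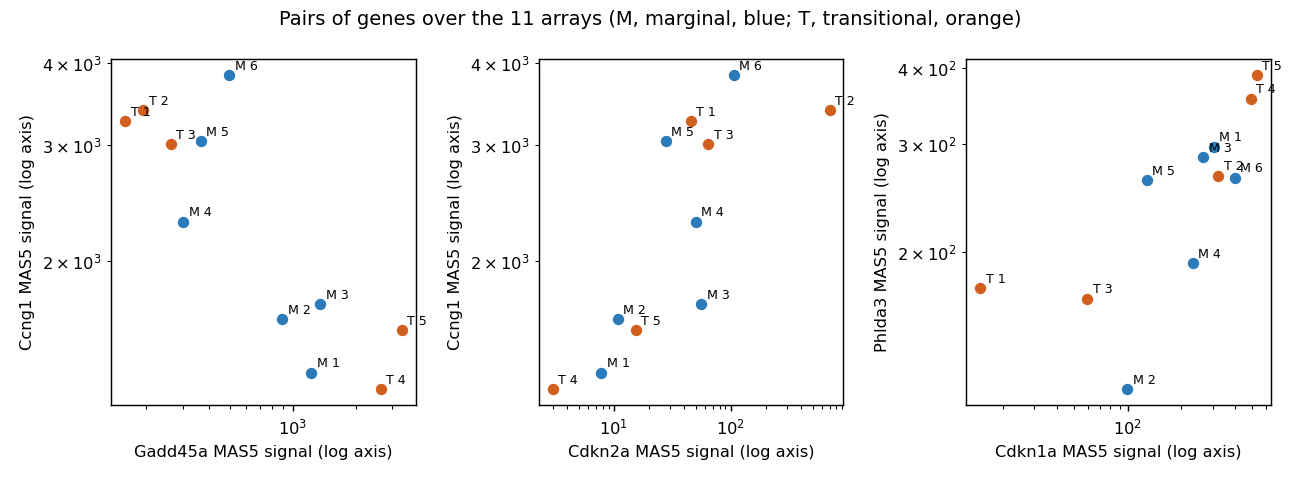
Scatter plots of signals on log axes over the 11 arrays for Gadd45a and Ccng1, Cdkn2a and Ccng1, and Cdkn1a and Phlda3, marginal in blue and transitional in orange. In the left panel the 5 arrays with Gadd45a at or above 893.2 all lie at or below 1721.3 in Ccng1, and in the middle panel transitional 2 lies far to the right of the others.

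Cdkn2a ran with Ccng1 more closely than with any other member. Over the 11 arrays Spearman rho was 0.836 (permutation p = 0.0021, adjusted p = 0.0378) and Pearson r was 0.724 (permutation p = 0.0039, adjusted p = 0.0702). Apart from transitional 2, Cdkn2a lay no higher than the 48.4th percentile of any array, so its ranks order mostly dim signals. Without transitional 2 and 4, the arrays farthest from the Cdkn2a median, r was 0.772. It was 0.736 within the marginal class, 0.637 without transitional 4 and 5 and 0.823 without transitional 2 alone. The 5 arrays with high granulocyte and erythroid markers held 4 of the 5 lowest Cdkn2a signals as well as the 5 lowest of Ccng1, and the part of those cells in this relation was not tested. Against Gadd45a the relation was negative and did not pass (r = −0.641, permutation p = 0.0231, adjusted p = 0.207; rho = −0.591, permutation p = 0.0607, adjusted p = 0.273; r fell to −0.524 when transitional 2 and 4 were left out, and among marginal tumours it was −0.388). Against Cdkn1a, r was −0.001 (permutation p = 0.997, adjusted p = 0.997; rho = −0.127, permutation p = 0.714, adjusted p = 0.856; r = −0.101 without transitional 2 and 4), and against Mdm2 it was −0.081 (permutation p = 0.807, adjusted p = 0.855; rho = −0.05, permutation p = 0.887, adjusted p = 0.912; r = 0.039 without those arrays). Of the 8 genes paired with Cdkn2a, 6 had a negative and 2 a positive r, and by Pearson r none passed.

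The 8 targets did not move as a single group. Of the 28 pairs among them 16 had a positive r, and the median r was 0.173. Over all 36 pairs, 6 had an unadjusted permutation p under 0.05 for r, 0 passed after adjustment for Pearson r, and 2 passed for Spearman rho, Cdkn1a with Phlda3 and Cdkn2a with Ccng1. Averaged over the 8 genes, the log2 deviation from each gene's mean over the arrays was lowest on transitional 1, at −0.71, and highest on transitional 4 and 5, at 0.56 and 0.48. It was 0.05 on transitional 2.

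Sesn1 and Sesn2 encode sestrins, stress-induced proteins that restrain the growth kinase mTORC1. The brightest Sesn1 probe set gave 1123.7, 2253.3, 1555.1, 1344.5, 1611.0 and 1915.1 on marginal 1 to 6 and 1353.7, 1064.2, 1447.2, 1268.6 and 1090.3 on transitional 1 to 5. The third probe set averaged 1086 ± 378 in marginal (SD, n = 6) and 656 ± 111 in transitional tumours (SD, n = 5), a log2 difference of −0.65 (SE 0.26). Limma did not call it (unadjusted p = 0.0297, adjusted p = 0.999). There marginal 1, at 530.9, was the only marginal tumour inside the transitional range of 515.1 to 796.2, since the others read at least 916.8. All 3 Sesn1 probe sets had the lower mean in transitional tumours, at −0.36, −0.42 and −0.65, and they ordered the tumours alike (r of 0.832 to 0.856).

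Sesn2 was dimmer and its 2 probe sets gave different pictures. The brighter gave 266.0, 76.4, 142.7, 157.8, 49.5 and 122.7 on marginal 1 to 6 and 146.1, 143.9, 234.2, 294.6 and 198.4 on transitional 1 to 5, a log2 difference of 0.64 (SE 0.35). The other gave 0.07 (SE 0.52), with transitional 1 at 26.3 against 140.6 to 202.2 on the other transitional arrays. Marginal 5 was nearly as low on it, at 30.2, and was the lowest array on the brighter probe set. By the brighter probe set transitional 1 was 146.1, at the median. Sesn1 and Sesn2 ran against each other without passing (r = −0.633, permutation p = 0.0365, adjusted p = 0.219; rho = −0.673, permutation p = 0.0278, adjusted p = 0.183; r = −0.527 without marginal 2 and 6 and −0.696 within the marginal class).

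Perp, a membrane protein of cell junctions that p53 induces in dying cells, was near the bottom of the array. It read 31.7, 24.7, 17.3, 14.2, 5.3 and 14.1 on marginal 1 to 6 and 1.1, 48.3, 25.1, 19.3 and 22.6 on transitional 1 to 5. These signals lay below the 31st percentile on every array (30.8 at most, on transitional 2), and the mean was at the 19.3th percentile of all probe sets. Perp and Cdkn2a were the 2 genes that fell outside the upper 60% by mean signal, a filter blind to class, and they entered only the fit over all probe sets.

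**Figure D4:**
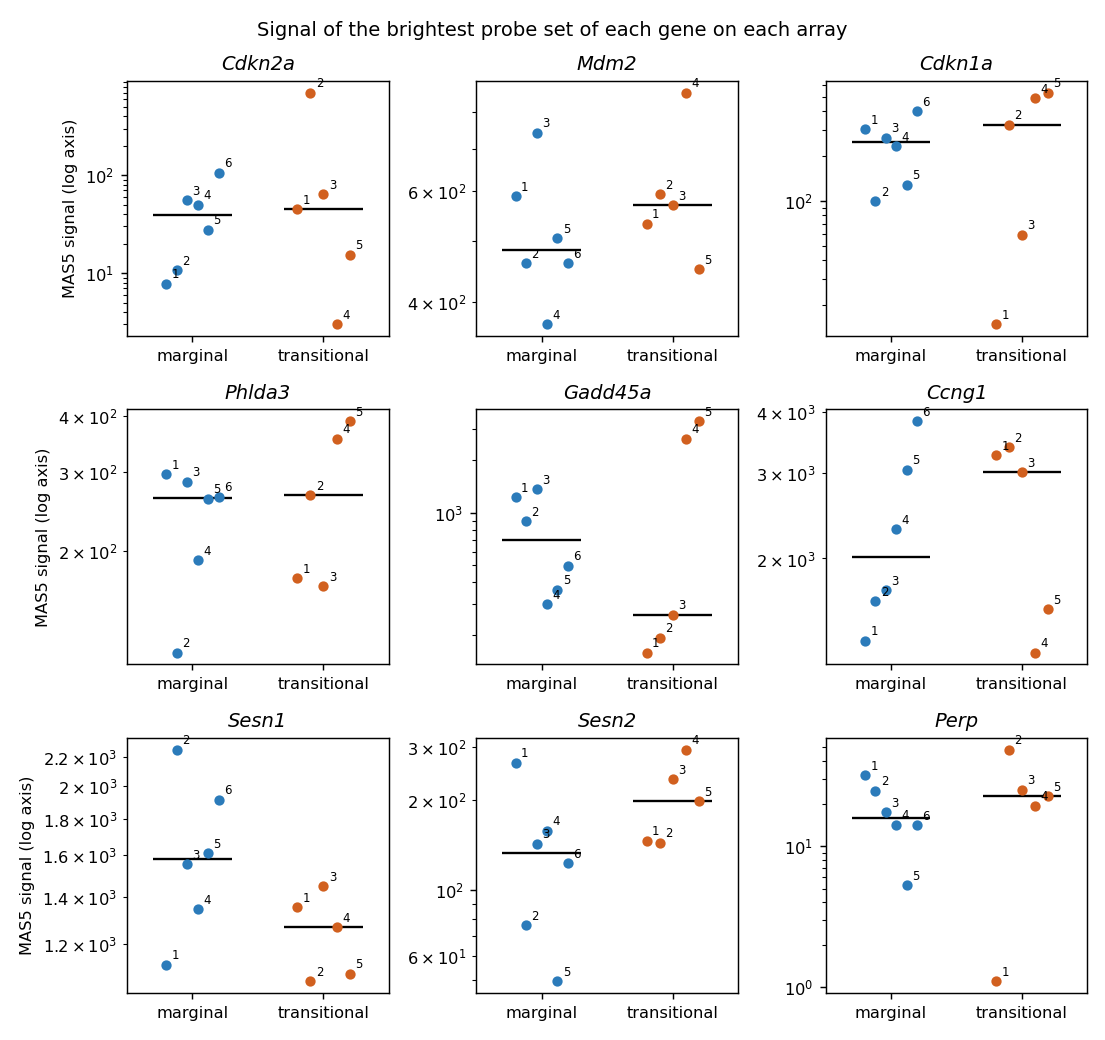
Signal of the brightest probe set of each of the 9 genes on a log axis, by class, with 1 numbered point for each tumour and a line at the class median. The classes overlap in every panel. Transitional 2 lies apart for Cdkn2a at 698.4, and transitional 1 is lowest for Cdkn1a at 14.9 and for the dim Perp at 1.1.

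Between the severity classes limma called no member. Of the 14 tested probe sets of 7 genes, 0 passed limma (adjusted p = 0.999 for each), against 0.0% of the 13576 tested probe sets in either direction. At an unadjusted p under 0.05 there was 1 of 14, the third Sesn1 probe set, against 3.34% of all tested. Transitional means were higher for 9 and lower for 5 of the 14, from −0.65 to 0.64, while 42.4% of all tested probe sets were higher and 57.6% lower. That background depends on the scaling, with 49.9% higher after quantile normalization and 57.9% after scaling to equal medians, whereas the member probe sets stood at 9 and 5 under each. Several of the 14 read the same gene. By gene, 4 of the 7 were higher and 3 lower under each scaling, beside 42.7% of all 7740 tested genes higher as deposited. For 0 of the 16 probe sets did the classes stand apart without overlap, as 0.103% of tested probe sets did with transitional higher and 0.125% with transitional lower. In the brightest probe set of each gene the log2 difference was 0.20 (SE 0.22) for Mdm2, −0.32 (SE 0.71) for Cdkn1a, 0.16 (SE 0.29) for Phlda3, −0.13 (SE 0.82) for Gadd45a and 0.10 (SE 0.34) for Ccng1. In the fit over all probe sets it was 0.54 (SE 0.78) for Cdkn2a and 0.14 (SE 0.32) for Perp (adjusted p = 0.999 for both, with 46.8% of 22626 probe sets higher and 53.2% lower). Several of these values moved with transitional 4 and 5. Without these 2 arrays the difference was −1.64 (SE 0.47) for Gadd45a, −1.32 (SE 0.65) for Cdkn1a, 1.60 (SE 0.75) for Cdkn2a and 0.57 (SE 0.31) for Ccng1, and limma called none of them (adjusted p = 0.291, 0.675, 0.63 and 0.711). With array weights Gadd45a stood at −1.32 (SE 0.61) and Ccng1 at 0.55 (SE 0.27), again not called (adjusted p = 0.769 for both). For Cdkn2a the sign rested on 1 tumour, and without transitional 2 the difference was −0.28. The direction of Gadd45a, Cdkn1a, Ccng1, Phlda3 and Perp also turned when single tumours were left out.

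Along the spleen grade, ranked from 1 to 5, no member passed either (0 of 14, against 0.0% of the 13576 tested in either direction, with 0 of 14 and 2.15% at an unadjusted p under 0.05). The steepest slopes were −0.29 (SE 0.18) per grade for the second Sesn2 probe set and 0.21 (SE 0.18) for the second Cdkn1a probe set. The slope of Cdkn2a was 0.42 (SE 0.29) in the fit over all probe sets (adjusted p = 0.999), and −0.019 without transitional 2. Ccng1 had a slope of 0.15 (SE 0.13) and Gadd45a one of −0.21 (SE 0.31).

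The genes whose signals most resembled Cdkn2a were likewise brightest on transitional 2. Among 12473 tested probe sets with 1 gene, the 5 with the highest Pearson r over the 11 arrays were Cxcl13 (0.924), a chemokine that draws B cells into follicles, Il15ra (0.91), the interleukin 15 receptor, Slc37a4 (0.903), a glucose 6-phosphate carrier, Bst2 (0.90), an interferon-induced membrane protein, and Gng3 (0.899), a G protein subunit. Cxcl13 read 6698.0 on transitional 2 and at most 544.1 elsewhere. Without transitional 2 the coefficients were 0.749, 0.849, 0.70, 0.879 and 0.756. The lowest were Ppp1r2 (−0.946), Eif1ax (−0.945) and Ogfod3 (−0.935). These are descriptions over 11 arrays that share a scale, chosen as the extremes of many.

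Cdkn1a most resembled Ints5 (0.914), Col5a1 (0.875), Mrpl2 (0.871), Slc19a2 (0.87) and Zdhhc16 (0.868), and ran most against Uso1 (−0.941), Nudt7 (−0.936) and Kdm4c (−0.903), each of which was highest on transitional 1. Mdm2 most resembled Cd33 (0.813), Slfn4 (0.794), Ceacam10 (0.782), Mettl9 (0.764) and Fto (0.753), of which all but Mettl9 were highest on marginal 1. It ran most against Plpbp (−0.849), Rpl27a (−0.841) and Gfm2 (−0.839). These Mdm2 coefficients are those of its brighter probe set, which the dimmer did not follow (r = 0.017 over 11 arrays). None of the other members appeared in these lists.

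Further genes of the pathway gave no calls. The first list held other p53 targets of arrest and repair together with relatives of targets, Sesn3, Ccng2, Gadd45b and Gadd45g. Of its 20 genes 15 were tested, 4 higher and 11 lower in transitional tumours. Their median log2 difference was −0.23 beside −0.06 over all 7740 tested genes. After quantile normalization or median scaling 5 were higher and 10 lower. The members with the smallest p were Dcxr, a sugar reductase (−0.56, SE 0.29), and Xpc, which recognises damaged DNA for excision repair (−0.66, SE 0.35). Xpc read 696.9 on marginal 1 and at most 309.2 on any other array. This list had its lowest mean log2 deviation on transitional 4, at −0.58, the array on which the 8 targets above had their highest. There the relatives Sesn3, Ccng2 and Gadd45b read 177.7, 557.7 and 349.4, against medians of 1027.9, 1394.2 and 1032.3. Gadd45g, at 403.6 against a median of 342.1, did not go with them. Genes of the list other than these relatives went both ways on transitional 4. Ddb2 and Rrm2b read 181.5 and 264.2, against medians of 372.7 and 542.3, and Gtse1 read 438.4 against a median of 152.3.

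Of p53 targets of death and stress, 14 of 18 were tested, 8 higher and 6 lower, with a median of 0.06. Ephx1, an epoxide hydrolase, differed by −1.15 (SE 0.59), with signals of 293.4 and 143.8 on transitional 4 and 5 and at least 505.4 elsewhere. Bbc3, the death inducer Puma, differed by 0.64 (SE 0.36) and ran from 75.7 on marginal 4 to 480.8 on transitional 5. On transitional 2, where Cdkn2a was high, the mean log2 deviation of the 15 genes of this list on the array was 0.45, its highest. Of these 15, 2 were highest of all arrays there and 0 lowest. The 2 were Dram1, at 1353.0 against a median of 101.0, and Fas, at 509.6 against 88.7. Fas was nearly as high on transitional 1, at 504.4. Macrophage markers also had their highest sum on transitional 2, at 38880, and the part of those cells was not tested. Neither list was low on that tumour, since the arrest and repair list stood at 0.18.

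Regulators of p53 and damage kinases had 10 higher and 6 lower of 16 tested (20 listed), with a median of 0.08, and 12 higher and 4 lower after median scaling. Trp53bp1, which binds damaged chromatin, differed by −0.79 (SE 0.52), and Mdm4, the partner of Mdm2 that blocks p53, by −0.54 (SE 0.40). Both were lowest on transitional 4 and 5, at 131.1 and 205.6 for Trp53bp1 and at 270.3 and 201.1 for Mdm4, the arrays where B cell markers were lowest.

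The other CDK inhibitors had 3 of 6 tested and all 3 lower, with a median of −0.27, though 1 was higher after median scaling. Cdkn1b, the inhibitor Kip1, differed by −0.51 (SE 0.33) and was lowest on transitional 2, at 305.4 against at least 712.0 elsewhere. Cdkn2c, a relative of Ink4a, differed by −0.27 (SE 0.54), with its highest signals, 2728.7 and 2245.4, on transitional 4 and 5. Cdkn2b, the neighbour of Cdkn2a in the genome, was too dim to be tested and was looked up after its values were seen. It read 95.7 on marginal 6, 86.8 on transitional 2 and 74.1 on transitional 3, against a median of 24.8. The same 3 arrays were the highest for Cdkn2a, with transitional 2 first.

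Regulators of the Ink4a-Arf locus, such as Polycomb proteins that silence it and factors that induce it, had 6 higher and 13 lower of 19 tested (26 listed), with a median of −0.12. The balance turned to 10 higher and 9 lower after median scaling and was 8 and 11 after quantile normalization. Ets1, a transcription factor, differed by −1.02 (SE 0.55), and the Polycomb subunit Suz12 by 0.41 (SE 0.24). Suz12 was 1414.1 on transitional 2, its median over the arrays, and Ets1 was 3247.3 there. Others of the list, looked up after their values were seen, went both ways on that array. Kdm2b was highest of all arrays there, at 979.6, as were the dim Cbx7 and Tbx3, at 202.8 and 65.4. Zbtb7a was lowest there, at 428.2. Genes of the Rb axis had 6 higher and 4 lower of 10 tested (11 listed), with a median of 0.02, led by Cdk4 at 0.31 (SE 0.18) and Ccnd1, cyclin D1, at −0.72 (SE 0.45). No gene of these lists passed limma between classes (adjusted p = 0.999 for each named) or along the spleen grade.

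**Figure D5:**
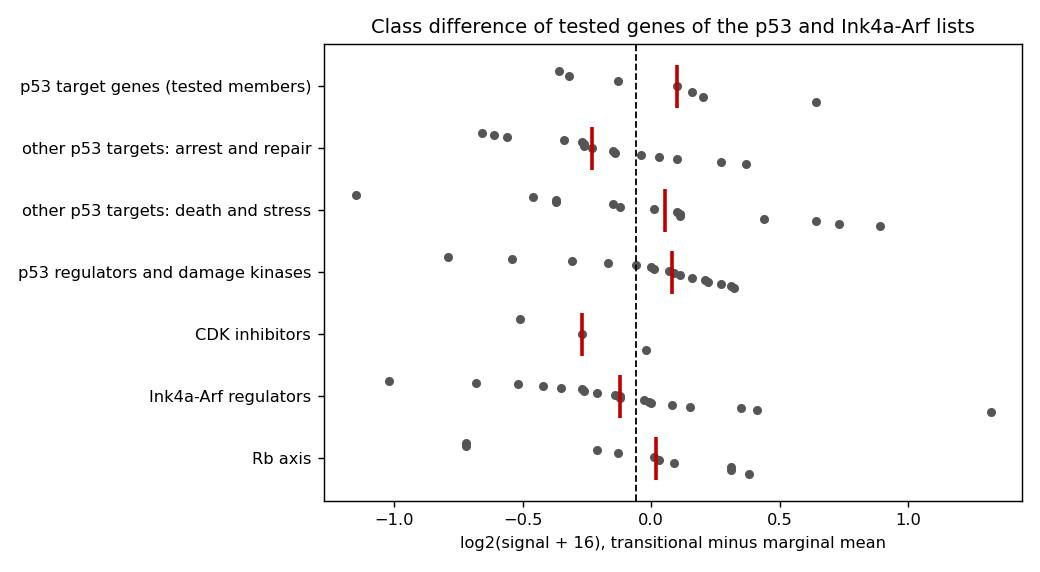
Class difference, transitional minus marginal mean of log2(signal + 16), of each tested gene (points) in the member list and in 6 lists of p53 and Ink4a-Arf genes, with the list median in red. The dashed line is the median of all 7740 tested genes, −0.06, and the list medians run from −0.27 for CDK inhibitors to 0.10 for the tested members.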

How the data were processed

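Per the submitters' processing notes, the deposited values are MAS5 intensities on a linear scale, from biotin-labelled cRNA that was transcribed from poly-dT primed cDNA per the labels' protocols. No MAS5 version is named. The trimmed mean was 500.2 on all 11 arrays, which hides any shift shared by most transcripts, and median signals ran from 99.7 to 151.9. No detection calls were used, and the number of arrays limits the precision. The labels name no animals or batches, so p-values measure the spread between these samples.

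After removal of 64 control probe sets, signals were taken as log2(signal + 16) and the upper 60% of 22626 probe sets by mean over all arrays (13576) were tested with limma 3.58.1 in R 4.3.3 (intensity trend, two-sided, Benjamini-Hochberg, threshold 0.05). Gene names are those of the platform annotation in GEO, brought up to date by Entrez identifier with a RefSeq table of GRCm38.p6 (20380 probe sets with 1 gene, 691 with several, 1555 with none). The brightest probe set stood for a gene. Correlations over arrays used 100000 permutations and Benjamini-Hochberg adjustment over 36 pairs. Members, lists, thresholds and the rule for named genes (all members, the 2 smallest p of each list, the 5 highest and 3 lowest r for Cdkn2a, Cdkn1a and Mdm2) were chosen with earlier results of these data known. The fits were tested on simulated data. Promoters were taken from RefSeq, GRCm38.p6.

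Same-numbered samples of the classes did not deviate together, so the numbers were not taken as pairs. Alternatives covered the offset (1 and 64), quantile and median scaling, the filter, the trend, weights for arrays, a block for the sample number, animals that failed to nest, leaving out transitional 4 and 5, and leaving out each array.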

Additional observations from a re-analysis of the deposited data

Results flagged for a closer look

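In 32 groups, the 16 probe sets in each class, the distance of the highest and lowest tumour from the next was compared with the range of the class, where chance sets apart about 1 in 20 groups. On the log2(signal + 16) scale 1 tumour stood apart. The second Sesn2 probe set read 26.3 on transitional 1, a gap of 0.798 of the range of its class, while the brighter Sesn2 probe set read 146.1 there. In the other class the second probe set read 30.2 on marginal 5. On the signal scale, an alternative chosen after seeing the data, 2 others stood apart and the Sesn2 reading of transitional 1 did not. Cdkn2a read 698.4 on transitional 2, a gap of 0.912 of the range, and a dimmer Ccng1 probe set read 1869.4 on marginal 6, a gap of 0.637.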

How the results depend on the processing

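The count of tumours with high Cdkn2a and low p53 targets was 0 under all 19 alternatives, and no probe set was called by limma between classes (22 alternatives) or along the spleen grade (21). With sample number as a replicate block 0 were called, with 315 in place of 454 at an unadjusted p under 0.05, and no member turned direction; same-numbered samples did not deviate together (r from −0.452 to −0.0883 over 5 pairs), so the numbers share only a label. Median scaling moved the median of all tested probe sets from −0.057 to 0.063.

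Slopes per grade and counts of pairs were alternatives chosen after seeing the data. Signs turned as follows, and the cause was not tested. Class differences became 0.07 (mean of all probe sets) and 0.04 (failed to nest only) for Cdkn1a, −0.01 (offset 1) and −0.03 (failed to nest only) for Perp, and −0.18 for Phlda3 without transitional 4 and 5. Slopes became −0.044 for Mdm2, 0.065 for Cdkn1a and 0.028 for Sesn1 with class in the model, 0.012 for Cdkn1a with offset 64, and 0.022 (median scaling) and 0.011 (array weights) for Sesn2. Correlations with Cdkn2a became 0.077 (offset 64) and 0.014 (quantile normalization) for Cdkn1a, and without transitional 4 and 5 were 0.17 for Mdm2, 0.289 for Cdkn1a, 0.09 for Sesn2 and 0.295 for Phlda3. With offset 1, 2 pairs passed for Pearson r in place of 0, among them Cdkn2a with Ccng1 (r = 0.791, permutation p adjusted 0.0427).

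Leaving out 1 array at a time, between 0 and 3 pairs passed, with 3 without marginal 2 and 1 without marginal 6. Class differences ran from −0.71 to 0.32 for Cdkn1a, −0.28 to 1.03 for Cdkn2a, −0.04 to 0.31 for Ccng1, −0.74 to 0.33 for Gadd45a, −0.07 to 0.41 for Perp and −0.01 to 0.30 for Phlda3, and kept their sign for Mdm2, Sesn1 and Sesn2. Slopes ran from −0.006 to 0.065 for Mdm2, −0.188 to 0.371 for Cdkn1a, −0.019 to 0.558 for Cdkn2a, −0.069 to 0.109 for Sesn2, −0.381 to 0.025 for Gadd45a and −0.236 to 0.073 for Perp. Correlations with Cdkn2a ran from −0.318 to 0.227 for Mdm2, −0.264 to 0.14 for Cdkn1a, −0.296 to 0.327 for Sesn1, −0.303 to 0.017 for Sesn2, −0.368 to 0.425 for Perp and −0.312 to 0.093 for Phlda3, and kept their sign for Ccng1 (0.67 to 0.823) and Gadd45a. Cdkn2a and Perp are dim on most arrays, which limits their ratios.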
